A study of Homo sapiens with 4 samples.

Results

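Iron handling and ferroptosis genes were examined in 2 human gastric cancer cell lines, AGS, which grew from a gastric adenocarcinoma and is epithelial, and HGC-27, from an undifferentiated gastric carcinoma. The 10 genes were chosen by symbol, out of 58336 in the deposited table, and the choice was made with earlier results of these counts known. They are the transferrin receptor TFRC, the ferritin chains FTH1 and FTL, the iron exporter ferroportin SLC40A1, the ferritin autophagy receptor NCOA4, haem oxygenase HMOX1, the cystine transporter SLC7A11, the lipid peroxidase GPX4, the quinone reductase AIFM2 (also called FSP1) and the acyl-CoA synthetase ACSL4. Each line was labelled wild type and gave 1 library of cells treated with 10 nM estradiol (E2), the main oestrogen, for 1 day and 1 library of control cells, so that there were 2 estradiol and 2 control libraries in all. The 2 libraries of a line differ in treatment and the 2 libraries of a treatment differ in line. Nothing in the labels says that the libraries came from repeated experiments, so p-values and SEs speak of these libraries alone.

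Iron enters most cells bound to transferrin, is held in the ferritin shell made of heavy and light chains, and leaves through ferroportin. NCOA4 carries ferritin to the lysosome, which frees its iron, and HMOX1 frees iron from haem. Ferroptosis is a form of cell death in which iron drives the oxidation of membrane lipids: ACSL4 loads membranes with the fatty acids that oxidise, SLC7A11 brings in cystine for glutathione, GPX4 uses glutathione to reduce lipid peroxides, and AIFM2 keeps quinones reduced so that they can stop the chain reaction. In iron-poor cells, the iron regulatory proteins bind hairpins in the mRNAs, which stabilises TFRC mRNA and blocks translation of ferritin and ferroportin mRNA.

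Those hairpins are shown because they are the known shared control element of the iron genes. A search of GENCODE release 29 transcripts (GRCh38) for a bulged C, a stem of 5 base pairs (G-U pairs allowed) and the loop CAGTGN, on the transcript strand, found a match in 4 of the 10 genes. Each of the 10 genes was searched in all its protein-coding transcripts, and the 1 with most matches was kept. For SLC40A1 a match was found in 1 of 5 transcripts. Of 19684 protein-coding genes, searched in their longest transcript only, 1.32% held a match and 0.0102% held 3 or more. This search is the narrower, so the shares are not a like-for-like background. The 30 bases around each match are written 5′ to 3′ as DNA letters, with the loop in capitals.
TFRC hairpin 1: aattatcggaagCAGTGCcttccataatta
TFRC hairpin 2: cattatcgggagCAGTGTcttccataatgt
TFRC hairpin 3: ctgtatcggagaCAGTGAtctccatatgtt
TFRC hairpin 4: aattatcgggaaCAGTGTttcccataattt
FTH1 hairpin 1: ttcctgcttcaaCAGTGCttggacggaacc
FTL hairpin 1: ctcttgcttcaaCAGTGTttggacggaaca
SLC40A1 hairpin 1: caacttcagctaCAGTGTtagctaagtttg

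The 4 TFRC matches lay in the 3′ UTR of transcript TFRC-201 on the minus strand, at chr3:196050978-196051007, chr3:196050574-196050603, chr3:196050509-196050538 and chr3:196050462-196050491. The other 3 lay in the 5′ UTR: that of FTH1-201 at chr11:61967573-61967602 (minus strand), that of FTL-201 at chr19:48965335-48965364 (plus strand) and that of SLC40A1-201 at chr2:189580660-189580689 (minus strand). The counts below measure the amount of RNA, not its translation. A match is a description of the letters and not evidence that a protein was bound there in these cells.

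The libraries held 24597379 to 28734374 counts, and the share of mitochondrially encoded genes was 7.82% to 7.94%. All 10 genes had counts in every library and passed the filter on low counts. The lines went by their labels: 8 epithelial markers summed to 6128 to 6456 CPM (the usual counts scaled to a common library size, here by TMM) in AGS and 72.3 to 76.7 CPM in HGC-27, and 6 mesenchymal markers to at most 5.57 CPM in AGS and 1688 to 1710 CPM in HGC-27, although the mesenchymal cadherin CDH2 had 0 and 4 counts in HGC-27. Markers of iron-recycling macrophages, of erythroid cells, hepatocytes and endothelium summed to under 1 CPM per library in each list, with CD163 at 0 throughout. Leukocyte markers summed to at most 0.154 CPM in AGS and 4.96 CPM in HGC-27, with CD3E at 0 in every library. In bulk RNA, fewer cells that express a gene and less RNA of it per cell cannot be told apart.

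Levels of different genes were compared per length, as TMM-scaled CPM per kilobase of the deposited gene length. FTL stood highest in both lines and FTH1 came next. In AGS the order was FTL (3280 ± 124, SD over the estradiol and control library), FTH1 (234 ± 9.05), TFRC (69.5 ± 0.18), GPX4 (54.7 ± 3.09), NCOA4 (40.9 ± 1.14), HMOX1 (30.1 ± 1.13), ACSL4 (11.2 ± 0.74), AIFM2 (7.43 ± 0.25), SLC7A11 (4.99 ± 0.08) and SLC40A1 (4.93 ± 1.14). In HGC-27 it was FTL (834 ± 23.1), FTH1 (415 ± 20.9), TFRC (114 ± 1.20), GPX4 (71.7 ± 2.89), NCOA4 (51.6 ± 0.97), ACSL4 (23.7 ± 0.37), HMOX1 (14.5 ± 0.77), SLC7A11 (12.1 ± 0.64), SLC40A1 (5.24 ± 0.61) and AIFM2 (0.293 ± 0.015). The first 5 places were the same in the lines. AIFM2 was the lowest of the 10 in HGC-27 and the eighth in AGS. The libraries of neighbours in these orders did not overlap, except for SLC7A11 and SLC40A1 in AGS. The gene length of the table covers all exons of a gene and can exceed the length of the mRNA that was present, so these orders depend on it.

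**Figure D1:**
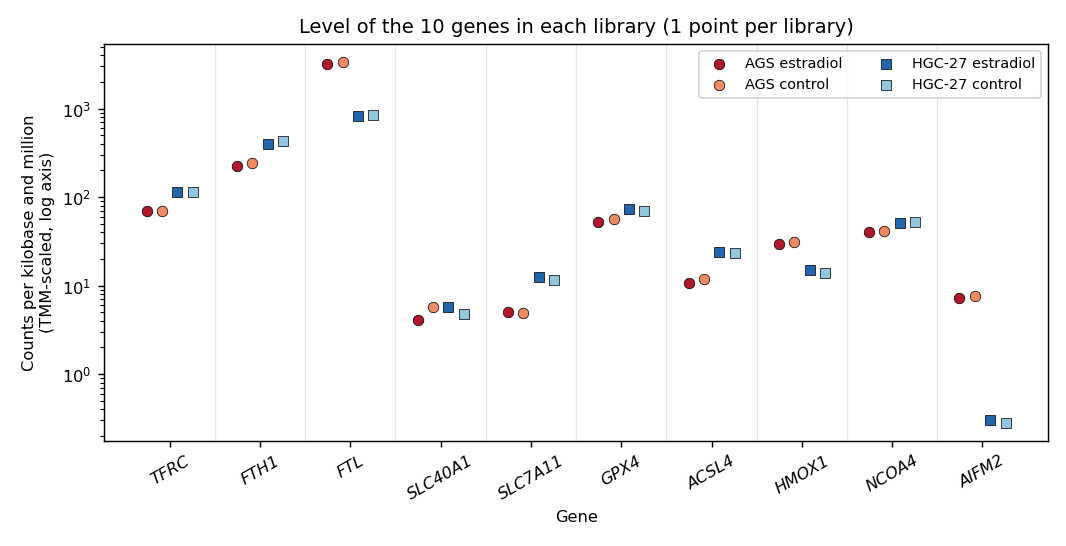
Level of each of the 10 genes in each library, as TMM-scaled CPM per kilobase of gene length on a log axis, with 1 point per library (circles AGS, squares HGC-27, dark estradiol, light control). The points of a line lie close together for most genes, while the lines stand apart most for AIFM2 and FTL.

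The lines differed more than the treatments. Of the 10 genes, 3 were higher in AGS than in HGC-27 (AIFM2, FTL and HMOX1) and 6 were lower (SLC7A11, ACSL4, FTH1, TFRC, GPX4 and NCOA4), past an adjusted p of 0.05 in edgeR's quasi-likelihood test with the treatment as a covariate. SLC40A1 did not pass. The same test called 77.2% of the 18278 genes tested, 35.7% higher and 41.5% lower in AGS, so that 9 of 10 is close to what genes in general did and nothing is read from the count. The median log2 difference (AGS minus HGC-27) was -0.36 over the 10 genes and -0.10 over all genes tested, and the median size of the difference was 0.94 over the 10 genes and 0.89 over all. Each difference below is fitted over the 4 libraries, 2 a line, and is given as a description. The same holds where libraries of the lines are said not to overlap. The share of all genes for which this is so was not counted here, and nothing is read from it.

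Ferritin was the largest group by count, and its chains went opposite ways. FTL, the light chain that helps iron mineralise (ENSG00000087086, chromosome 19, 48965301 to 48966878), had 77469 and 76854 counts in the estradiol and control libraries of AGS, against 17949 and 21605 in those of HGC-27. This is 2803 and 2957 CPM in AGS against 718 and 747 CPM in HGC-27, a log2 difference of 1.97 ± 0.05 (SE), or 3.93-fold higher in AGS. The AGS libraries lay far above those of HGC-27, whichever the treatment. FTH1, the heavy chain that oxidises iron on entry (ENSG00000167996, chromosome 11, 61959718 to 61967660), had 12771 and 12683 counts in the AGS libraries, against 20320 and 25255 in HGC-27. Scaled, this is 462 and 488 CPM in AGS against 813 and 873 CPM in HGC-27, a log2 difference of -0.83 ± 0.05. Here the AGS libraries lay below those of HGC-27 with no overlap.

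The balance of the chains therefore differed between the lines in a ratio that no library scaling enters. The count of FTL over that of FTH1 was 6.07 and 6.06 in the estradiol and control libraries of AGS, against 0.883 and 0.855 in those of HGC-27, a 6.87-fold and 7.08-fold difference. The 95% counting intervals were 5.95 to 6.18 and 5.95 to 6.17 in AGS, and 0.866 to 0.901 and 0.840 to 0.871 in HGC-27. Per length the ratio was 14.03 and 14.01 in AGS, and 2.04 and 1.98 in HGC-27. FTL made up 85.8% of the ferritin counts in each AGS library, and 46.9% and 46.1% in the estradiol and control libraries of HGC-27. Summed over the chains, ferritin took 0.322% and 0.340% of all counts in the AGS libraries and 0.156% and 0.163% in HGC-27. Ferritin counts carry an uncertainty of counting: 83% of the 31-base stretches of the longest FTH1 transcript and 33.3% of those of FTL also occur in transcripts of other genes. The table lists 25 same-named pseudogenes of FTH1 and 16 of FTL, and their counts summed to at most 0.775% of those of FTH1 and 0.102% of those of FTL in any library. The highest were FTH1P2 (49, 39, 71 and 98 counts in AGS estradiol, AGS control, HGC-27 estradiol and HGC-27 control), FTH1P8 and FTH1P23 for FTH1, and FTLP3 (47, 28, 9 and 14), FTLP14 and FTLP12 for FTL. The sources used here do not give the handling of reads that match several places.

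**Figure D2:**
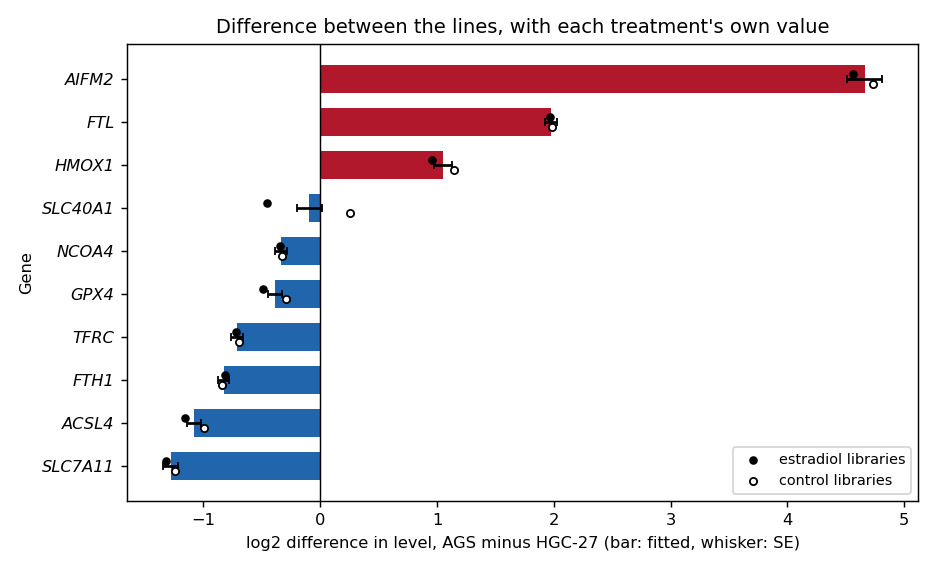
Log2 difference in level between the lines (AGS minus HGC-27) for the 10 genes, with fitted values as bars, SEs as whiskers, and the difference within the estradiol libraries (filled points) and within the control libraries (open points). AIFM2, FTL and HMOX1 lie to the right of 0, and the points of SLC40A1 lie on opposite sides of 0.

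The other iron genes differed less between the lines than FTL. TFRC, which takes up transferrin-bound iron (ENSG00000072274, chromosome 3, 196027183 to 196082189), stood at 547 and 549.5 CPM in the estradiol and control libraries of AGS, against 904 and 891 CPM in those of HGC-27. The log2 difference was -0.71 ± 0.05. TFRC and FTH1 were thus both lower in AGS, and the count of TFRC over that of FTH1 was 1.18 and 1.13 in AGS against 1.11 and 1.02 in HGC-27. NCOA4 (ENSG00000266412, chromosome 10, 46005088 to 46030714) stood at 164 and 170 CPM in AGS against 208 and 213 CPM in HGC-27, a log2 difference of -0.34 ± 0.05. It shares 15.5% of its 31-base stretches with other genes, and its 3 same-named pseudogenes, NCOA4P3 and NCOA4P4 among them, had at most 2 counts in a library. HMOX1 (ENSG00000100292, chromosome 22, 35380361 to 35394214) stood at 70.4 and 74.3 CPM in AGS against 36.2 and 33.6 CPM in HGC-27, a log2 difference of 1.05 ± 0.07. For each of these genes the libraries of the lines did not overlap, which is a description, as 77.2% of all genes tested were called between the lines.

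SLC40A1, the only known iron exporter of animal cells (ENSG00000138449, chromosome 2, 189560579 to 189583758), was the exception. It had 494 counts (17.9 CPM) in the AGS estradiol library and 646 (24.9 CPM) in the AGS control library, against 614 (24.6 CPM) and 602 (20.8 CPM) in the estradiol and control libraries of HGC-27. The ranges of the lines overlap, and the fitted log2 difference was -0.09 ± 0.10. With 1 library left out, a model of the line alone was fitted, with no treatment term, in which the lone library of a line is assumed to vary like the other line's pair. In that model the difference was -0.34 without the AGS control library (edgeR adjusted p = 0.0185), 0.13 without the AGS estradiol library, 0.05 without the HGC-27 estradiol library and -0.21 without the HGC-27 control library (adjusted p of 0.203 to 0.794 for these 3). Between the estradiol libraries AGS was lower by a log2 difference of -0.46 (counting interval -0.63 to -0.29), whereas between the control libraries it was higher by 0.26 (0.09 to 0.42). The count of TFRC over that of SLC40A1, import over export, was 30.6 and 22.1 in the estradiol and control libraries of AGS, against 36.8 and 42.8 in those of HGC-27. The ratio was higher with estradiol in AGS and lower with estradiol in HGC-27.

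**Figure D3:**
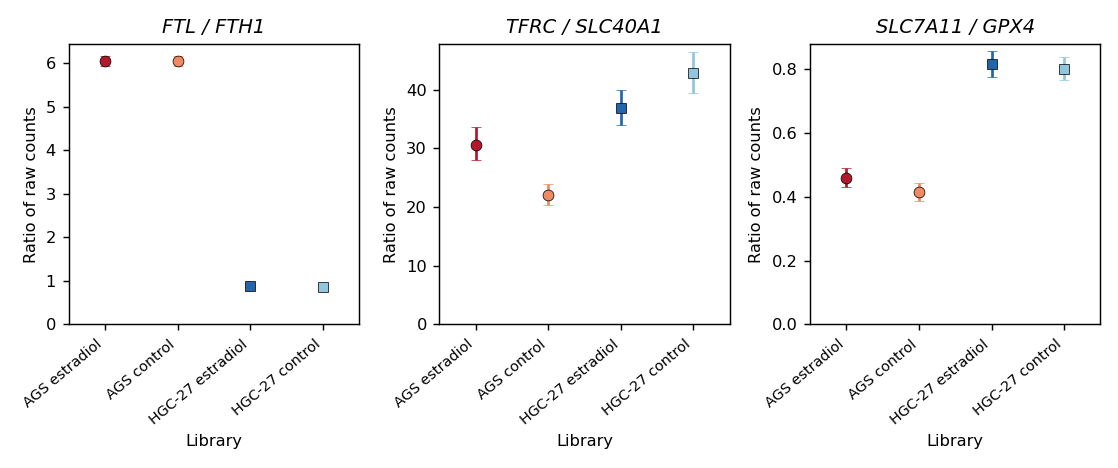
Ratio of raw counts within each library for 3 pairs of genes, with 95% counting intervals as bars and axes that start at 0. The FTL to FTH1 ratio lies near 6 in the AGS libraries and below 1 in those of HGC-27, the TFRC to SLC40A1 ratio moves in opposite directions with estradiol in the lines, and the SLC7A11 to GPX4 ratio is lower in AGS than in HGC-27 in each treatment.

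Of the ferroptosis genes, AIFM2 stood furthest apart. It had 1030 and 1015 counts in the estradiol and control libraries of AGS, against 39 and 42 in those of HGC-27 (ENSG00000042286, chromosome 10, 70098223 to 70132934). This is 37.3 and 39.1 CPM in AGS against 1.56 and 1.45 CPM in HGC-27, a log2 difference of 4.66 ± 0.15, or 25.3-fold higher in AGS. The AGS libraries lay far above those of HGC-27, where the gene was hardly detected. H2AFY2, which overlaps AIFM2 on the opposite strand over 14058 bases, had 4 and 11 counts in the AGS libraries and 0 and 2 in HGC-27. The other 3 genes that guard against or enable lipid peroxidation were lower in AGS. GPX4 (ENSG00000167468, chromosome 19, 1103926 to 1106791) stood at 106 and 115 CPM in AGS against 149 and 141 CPM in HGC-27, a log2 difference of -0.39 ± 0.06. SLC7A11 (ENSG00000151012, chromosome 4, 138164097 to 138242349) stood at 48.7 and 47.6 CPM in AGS against 121 and 113 CPM in HGC-27, a difference of -1.28 ± 0.06. ACSL4, which enables peroxidation (ENSG00000068366, chromosome X, 109624244 to 109733403), stood at 68.6 and 75.3 CPM in AGS against 154 and 150 CPM in HGC-27, a difference of -1.08 ± 0.06. The libraries of the lines did not overlap for any of these 4 genes, which again is a description and sets them apart from no other genes. The count of SLC7A11 over that of GPX4 was 0.459 and 0.415 in AGS against 0.816 and 0.802 in HGC-27.

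AIFM2 is a known target of NRF2, the transcription factor of the antioxidant response, and its start region was searched for the core of the antioxidant response element, TGACNNNGC, on both strands. RefSeq promoter windows of 250 bases before the start (GRCh38.p14) matched 7 of the 10 genes, with 10 windows in all; FTH1, SLC7A11 and HMOX1 were not among them. The AIFM2 window was the only one of the 10 with a match, and 10.9% of the 35116 windows of all genes hold one. The match is on the opposite strand, so that its reverse complement stands in capitals in the 30 bases at chr10:70132828-70132857. These run from 32 to 3 bases before the RefSeq start. The deposited coordinates place the start of AIFM2, a gene on the minus strand, at 70132934. By those coordinates the 30 bases lie inside the gene and not before it.
AIFM2 start region: cagcacgagtGCTGAGTCAcgccccgcccg

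The match is a description of the letters, and nothing about binding follows from it. NFE2L2, the gene of NRF2, was higher in AGS, with a log2 difference of 0.44 ± 0.06, and KEAP1, which marks NRF2 for degradation, was lower by -1.23 ± 0.06 (4312, 3988, 2832 and 3305 counts of NFE2L2 and 2326, 2207, 4820 and 5936 of KEAP1 in AGS estradiol, AGS control, HGC-27 estradiol and HGC-27 control).

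With estradiol, none of the 10 genes passed the test over both lines, where 0.153% of the 18278 genes tested did (28 genes, edgeR's quasi-likelihood test, blocked by line), and none had an unadjusted p under 0.05, where 593 of all genes tested did. DESeq2 and limma-voom called none of the 10 after adjustment either. The statement on unadjusted p is for edgeR alone, since the SEs depended on the method, and it does not hold in DESeq2. In DESeq2 FTH1 stood at -0.087 ± 0.029 and FTL at -0.064 ± 0.023, with smaller SEs than in edgeR. By these SEs both chains have an unadjusted p under 0.05 in DESeq2's Wald test, where 145 of all genes tested did. SLC40A1 stood there at -0.114 ± 0.310, with a larger one. The fitted log2 changes (estradiol minus control) ran from -0.11 ± 0.10 for SLC40A1 to 0.07 ± 0.06 for SLC7A11, with a median of -0.04 over the 10 genes and -0.0007 over all genes tested. FTH1 stood at -0.09 ± 0.05, FTL at -0.07 ± 0.05, NCOA4 at -0.05 ± 0.05, ACSL4 at -0.04 ± 0.06, AIFM2 at -0.04 ± 0.13, GPX4 at -0.01 ± 0.06, TFRC at 0.01 ± 0.05 and HMOX1 at 0.01 ± 0.07. The median size of the change was 0.05 over the 10 genes and 0.09 over all genes tested. The fit has 1 residual degree of freedom, so the SEs come mostly from the variation shared across genes.

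Within a line there was 1 library of each kind and no test was possible. The log2 ratio of the estradiol over the control library is therefore given with a 95% counting interval, which covers counting error only. In AGS, 9 of the 10 ratios were below 0 and the interval excluded 0 for 5 genes, all lower with estradiol. Among 15605 genes whose mean count in AGS reached 10, the interval excluded 0 for 26.2%, 12.6% on the higher and 13.6% on the lower side. In HGC-27, 7 of the 10 ratios were above 0 and the interval excluded 0 for 3 genes on the higher side and 2 on the lower side, where 10.1% and 11.2% of 17234 genes did (21.3% in all). The share in all was larger among genes of higher count. Where the mean count reached 1000, 4 of 9 members were lower and none higher in AGS, against 16.8% lower and 17.9% higher of all such genes (34.6% in all). In HGC-27, 2 of 7 were higher, against 9.65% of all, and 2 lower, against 22.1% (31.7% in all). The members' median ratio was -0.08 in AGS and 0.06 in HGC-27, and that of all genes of 10 counts or more was -0.004 in AGS and 0.0002 in HGC-27.

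FTH1 and FTL were the only members lower in both lines beyond counting error. FTH1 stood at -0.08 (interval -0.11 to -0.04) in AGS and -0.10 (-0.13 to -0.08) in HGC-27, and FTL at -0.08 (-0.09 to -0.06) and -0.06 (-0.09 to -0.03). The central 95% of genes whose mean count reached 10000, as those of both chains do, lay between -0.10 and 0.18 in AGS and between -0.12 and 0.10 in HGC-27, and all these ratios fall inside. The ratio of FTL to FTH1 was 6.07 with estradiol and 6.06 without in AGS, with overlapping intervals. In HGC-27 it was 0.883 (0.866 to 0.901) with estradiol and 0.855 (0.840 to 0.871) without, with intervals that overlap only at their ends. Whether the ratio changed with estradiol was not tested. Of 13882 genes whose mean count reached 10 in each line, 2.69% had intervals on the same side of 0 in AGS and in HGC-27. The share among genes with counts as high as those of the ferritin chains was not counted.

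SLC40A1 and GPX4 went in opposite directions in the lines beyond counting error, as did 3.85% of those 13882 genes. Most of the members have far higher counts than the limit of 10, and the share among genes of like count was not counted. SLC40A1 stood at -0.48 (-0.65 to -0.30) in AGS and 0.24 (0.07 to 0.40) in HGC-27, a difference between the lines of -0.71 (-0.95 to -0.48, counting error only). Its ratio in AGS lay below the central 95% of genes whose mean count reached 100, which was -0.34 to 0.30, and its ratio in HGC-27 lay inside that of HGC-27, which was -0.25 to 0.35. GPX4 stood at -0.12 (-0.19 to -0.04) in AGS and 0.08 (0.02 to 0.15) in HGC-27, both inside the central 95% of genes whose mean count reached 1000, which was -0.18 to 0.18 in AGS and -0.17 to 0.17 in HGC-27. The difference between the lines could not be tested, since no line has a second library of either kind.

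The remaining genes had an interval that excluded 0 in at most 1 line. ACSL4 stood at -0.13 (-0.23 to -0.04) in AGS and 0.03 (-0.03 to 0.09) in HGC-27, and SLC7A11 at 0.03 (-0.08 to 0.14) and 0.11 (0.04 to 0.18). TFRC, at 14281 counts or more per library, stood at -0.01 (-0.04 to 0.03) in AGS and 0.02 (-0.004 to 0.05) in HGC-27. The HGC-27 interval lay above 0 under other scalings, at 0.001 to 0.05 with DESeq2 size factors and 0.009 to 0.06 with total counts. NCOA4 stood at -0.06 (-0.12 to 0.003) in AGS, or -0.12 to -0.001 with total counts, and at -0.04 (-0.09 to 0.01) in HGC-27, and HMOX1 at -0.08 (-0.17 to 0.01) in AGS and 0.11 (-0.02 to 0.24) in HGC-27. AIFM2 stood at -0.07 (-0.19 to 0.06) in AGS, and its 39 and 42 counts in HGC-27 left an interval of -0.56 to 0.77. The ratio of AGS minus that of HGC-27 excluded 0, by counting error only, for ACSL4 (-0.17, -0.28 to -0.05) and HMOX1 (-0.19, -0.34 to -0.03). For TFRC, SLC7A11, NCOA4 and AIFM2 its interval included 0.

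**Figure D4:**
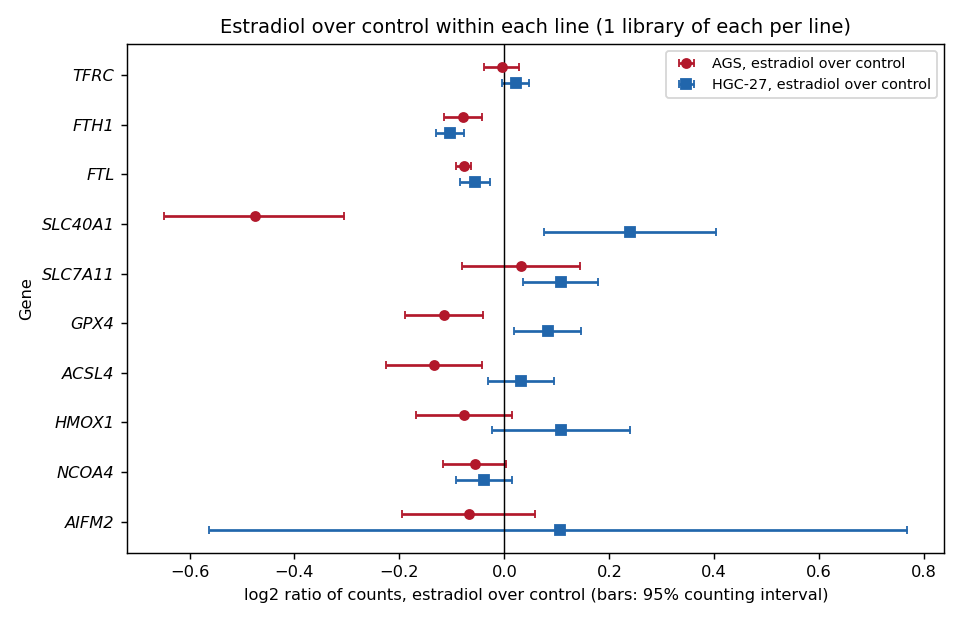
Log2 ratio of counts of the estradiol over the control library in AGS (circles) and HGC-27 (squares) for the 10 genes, with 95% counting intervals as bars and 1 library of each kind per line. The ratios of FTH1 and FTL lie below 0 in both lines, and those of SLC40A1 and GPX4 on opposite sides of 0.

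The other genes of iron handling and ferroptosis were taken from 8 lists of 129 genes, of which 116 were tested. With estradiol none of the 116 passed the test in either direction (0.115% of all genes were called higher and 0.0383% lower), 7 had an unadjusted p under 0.05, and the medians of the lists lay between -0.03 and 0.03. DESeq2 and limma-voom called none of the 116 with estradiol either. Between the lines 51 of the 116 were higher in AGS, 42 lower and 23 did not pass, so that 93 of 116 were called (80.2%) where 77.2% of all genes were. These counts include genes that entered the test only through the line where they were high, as stated for them below, and their calls are no support. The lists hold genes of many roles, and no list stands for a direction of its pathway.

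Among 9 tested genes of iron uptake and export, 4 were higher in AGS (HEPH, HFE, STEAP3 and SLC39A14) and 5 lower (CYBRD1, LRP1, SLC11A2, SLC39A8 and TFR2), with a median log2 difference of -0.50. HEPH, HFE, TFR2, CYBRD1 and SLC39A8 had at most 5 counts in each library of one line, so they entered the test only through the other line and only their counts are given. HEPH, the copper enzyme that oxidises iron as it leaves the cell through ferroportin, had 619 and 567 counts in the estradiol and control libraries of AGS against 3 and 2 in those of HGC-27. HFE, the haemochromatosis protein that binds TFRC, had 375 and 390 counts in the AGS libraries against 2 and 0 in HGC-27. TFR2, the second transferrin receptor, had 0 and 2 counts in the AGS libraries against 84 and 90 in HGC-27. CYBRD1, a ferric reductase, had 0 counts in both AGS libraries against 752 and 850 in HGC-27, at least 531-fold lower in AGS with 3 counts over its 2 libraries as the limit. SLC39A8, a metal importer, had 5 counts in each AGS library against 965 and 1137 in HGC-27. Its relative SLC39A14, which carries iron not bound to transferrin, went the other way with 13172 and 13341 counts in the AGS libraries against 5134 and 5995 in HGC-27 (1.26 ± 0.05). SLC11A2, which moves iron out of endosomes, differed by -0.50 ± 0.06, STEAP3, the endosomal ferric reductase, by 1.36 ± 0.08 and the haemopexin receptor LRP1 by -1.46 ± 0.06. CP, HAMP, LCN2 and TF were below the filter.

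Among 9 tested iron sensors and iron chaperones, 5 were higher in AGS (ACO1, FBXL5, GLRX3, IREB2 and SKP1) and 3 lower (CUL1, PCBP1 and PCBP2), and HERC2 did not pass (median 0.21). The RNA of the iron regulatory proteins that bind the hairpins shown above was slightly higher in AGS, IREB2 by 0.27 ± 0.05 and ACO1 by 0.21 ± 0.07. The amount and binding of the proteins were not measured. FBXL5, the iron-sensing ligase subunit that removes IREB2 protein, differed by 0.85 ± 0.08, and the iron chaperones of ferritin PCBP1 and PCBP2 by -0.62 ± 0.06 and -0.72 ± 0.05.

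Of 21 tested genes of mitochondrial iron, haem and iron-sulphur clusters, 9 were higher in AGS (among them ALAS1, BLVRB, CISD2, CPOX, FLVCR1, HMOX2, ISCU and NFS1), 9 lower (among them ALAD, BLVRA, CISD1, FECH, GLRX5, LYRM4, SLC25A28 and UROD) and 3 did not pass (among them PPOX and SLC25A37), with a median of 0.02. Haem synthesis was split: its first enzyme ALAS1 (0.78 ± 0.07) and CPOX (1.83 ± 0.08) were higher in AGS, and ALAD (-1.36 ± 0.08), UROD (-1.07 ± 0.07) and the last enzyme FECH (-0.96 ± 0.09) were lower. HMOX2, the constitutive haem oxygenase, was higher in AGS (1.51 ± 0.08), as HMOX1 was. The biliverdin reductases, which act after haem oxygenase, went opposite ways, with BLVRB at 1.58 ± 0.07 and BLVRA at -1.57 ± 0.08.

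Of 16 tested genes of cystine, glutathione and thioredoxin, 6 were higher in AGS (among them GCLM, GPX1, GPX2, GSS and SLC1A5), 6 lower (CHAC1, CTH, GGT1, GSR, PRDX6 and TXNRD1) and 4 did not pass (GCLC, PRDX1, SLC3A2 and TXN), with a median of -0.02. SLC3A2, the heavy chain that pairs with SLC7A11 in the cystine transporter, had 6134 and 5379 counts in the AGS libraries against 5678 and 6799 in HGC-27 (-0.11 ± 0.05), so that of the partners SLC7A11 alone passed the test. GPX2, the gastrointestinal glutathione peroxidase, had 519 and 544 counts in the AGS libraries against 3 and 7 in HGC-27, and likewise entered the test only through AGS. CTH, which makes cysteine from cystathionine, was lower in AGS (-2.07 ± 0.15), and the glutamine transporter SLC1A5 was higher (1.44 ± 0.05).

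Of 19 tested genes of lipid peroxidation and membrane remodelling, 9 were higher in AGS (ALOX5, ALOXE3, CYB5R1, FAR1, MBOAT1, PEBP1, POR, PTGS2 and SAT1), 6 lower (ACSL1, ACSL3, FADS1, FADS2, MBOAT2 and SCD) and 4 did not pass (AGPS, ALOX12, ALOX12B and LPCAT3), with a median of 0.09. FADS1, a desaturase that makes polyunsaturated fatty acids, had 21 and 34 counts in the AGS libraries against 2765 and 3386 in HGC-27 (-6.79 ± 0.12), and its neighbour in the pathway FADS2 had 50 and 59 against 359 and 419 (-2.82 ± 0.19). SCD, which makes monounsaturated fatty acids, differed by -2.36 ± 0.05, ACSL1 by -3.19 ± 0.06, and ACSL3, which activates monounsaturated fatty acids, by -0.67 ± 0.05. On the other side ALOX5, a lipoxygenase, had 708 and 741 counts in the AGS libraries against 2 and 0 in HGC-27. It entered the test only through AGS, so only its counts are given. The polyamine enzyme SAT1 was higher in AGS by 3.99 ± 0.07 and PTGS2 by 5.30 ± 0.17.

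Of 14 tested genes of radical trapping and quinone reduction, 6 were higher in AGS (COQ8A, GCH1, NQO1, PTS, QDPR and STARD7), 3 lower (among them PPARA and VKORC1L1) and 5 did not pass (COQ2, DHODH, PDSS1, PDSS2 and TXNDC12), with a median of 0.07. GCH1, PTS and QDPR of tetrahydrobiopterin synthesis and recycling were higher in AGS by 2.46 ± 0.10, 0.64 ± 0.12 and 1.06 ± 0.09. DHODH, the mitochondrial quinone reductase, had 547 and 432 counts in the AGS libraries against 462 and 539 in HGC-27 (-0.03 ± 0.11). Of 17 tested regulators, 8 were higher in AGS (among them BAP1, HSPA5, MDM2, MDM4, NFE2L2, OSGIN1 and SLC48A1), 6 lower (among them ATF3, ATF4, HSPB1, KEAP1 and ME1) and 3 did not pass (BACH1, NEDD4L and SRXN1), with a median of 0.22. ME1, which makes NADPH, had 0 counts in both AGS libraries against 2663 and 3112 in HGC-27, at least 1915-fold lower in AGS on the same limit. It entered the test only through HGC-27. Of 11 tested partners of ferritin autophagy, 4 were higher in AGS (ATG5, BECN1, SQSTM1 and WDR45), 4 lower (ATG7, GABARAPL1, GABARAPL2 and MAP1LC3B) and 3 did not pass (ATG9A, RB1CC1 and TAX1BP1), with a median of -0.07. The largest of these differences in size was -0.95 ± 0.09, for GABARAPL1, a protein of the autophagosome membrane.

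**Figure D5:**
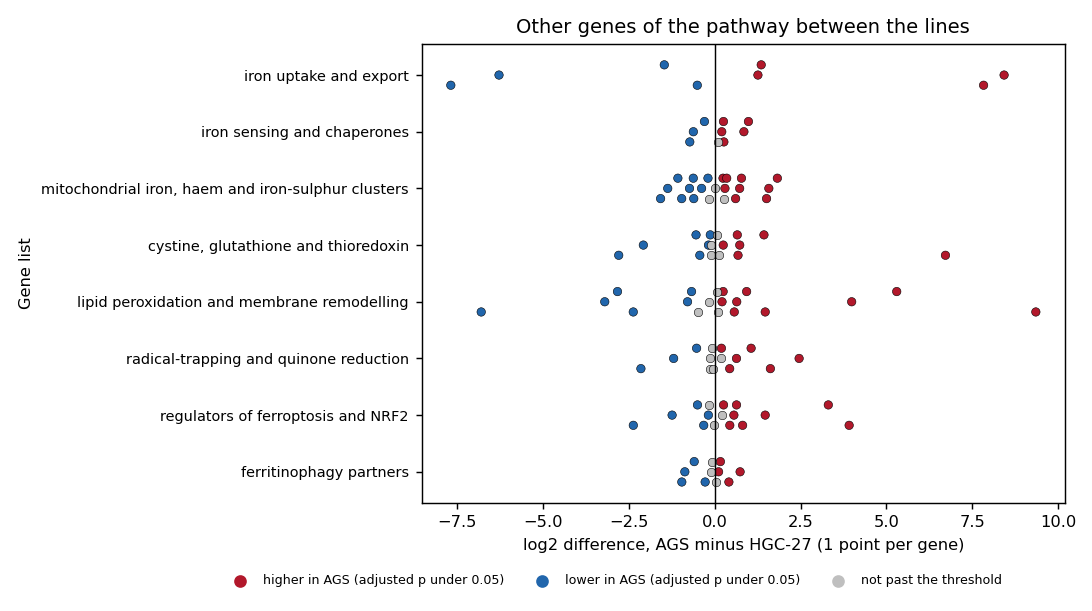
Log2 difference between the lines (AGS minus HGC-27) for the tested genes of the 8 lists, with 1 point per gene, coloured where the edgeR adjusted p is under 0.05 (red higher in AGS, blue lower) and grey otherwise. CYBRD1 and ME1, with 0 counts in both AGS libraries, are not drawn. HFE, HEPH, TFR2, SLC39A8, GPX2 and ALOX5 are drawn, although they entered the test only through the line where they were high. Nothing is read from their points or colours, or from the spread of a list that holds them.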

How the data were processed

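Per the labels' protocols, TRIzol was used for RNA and an NEB procedure for libraries. The submitters' processing notes name HISAT2, featureCounts and the build hg18, while the sources used here do not give versions or the strand and multi-mapping settings. The deposited values are unnormalized counts, 1 row a gene, and the coordinates given there for all 10 genes equal GENCODE release 29 on GRCh38. Whether reads of overlapping genes on opposite strands were told apart is not known. The gene length used is another column of the deposited table.

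The test was run in edgeR 4.0.16 under R 4.3.3 (TMM scaling, filterByExpr, which left 18278 genes, and a quasi-likelihood F-test of line plus treatment), with Benjamini-Hochberg adjustment over all genes tested and a threshold of 0.05. Each SE is the log2 change divided by the root of its F. The model has 1 residual and 396.9 prior degrees of freedom. A replicate number stands for a line in the labels, which pairs the libraries, so the line is a block. Across genes, Pearson's r was 0.997 within each line and 0.777 to 0.781 between lines. Ratios within a line used a prior of 0.5 counts and exact conditional binomial intervals of 95%. The labels mention no molecular identifiers, so reads are not independent molecules, and intervals and limits (3 counts) cover only counting error.

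The 10 genes, the 8 lists and the tests were chosen with earlier results of these data known. The rule was to name all 10 genes and every list gene past the test, with up to 4 others a list; values were printed for some. Some list and marker genes stay in the counts, sums and medians but are not reported here by name. The scripts were tested on simulated data. Alternatives used DESeq2 1.42.0, limma-voom 3.58.1, other scalings and filters, no block, added pseudogene counts and left-out libraries.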

Additional observations from a re-analysis of the deposited data

Results flagged for a closer look

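SLC40A1 and GPX4 drew attention because their estradiol over control ratios had opposite signs in the lines with both counting intervals excluding 0. The ratio of AGS minus that of HGC-27 was -0.71 for SLC40A1 (-0.48 in AGS and 0.24 in HGC-27) and -0.20 for GPX4 (-0.12 and 0.08). With 1 library of each kind per line the difference was not tested. Such a pattern was shown by 3.85% of 13882 genes whose mean count reached 10 in each line. The share among genes with counts as high as these was not counted.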

How the results depend on the processing

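The number of genes called with estradiol depended on the method, 28 in the reported fit against 13 with total counts as library sizes, 11 when only genes whose mean count reached 10 were tested, 1 in DESeq2 (145 with an unadjusted p under 0.05), 0 in limma-voom (490) and 0 with no replicate block, where the spread between the lines enters the error (2). None of the 10 genes was called with estradiol in any of these. HMOX1 had a fitted log2 change of 0.0058, but -0.0072 in limma-voom and -0.017 with no replicate block; the cause was not tested. Leaving out the libraries of a line gave a range of -0.0054 to 0.022 for TFRC, -0.077 to 0.11 for HMOX1, -0.48 to 0.24 for SLC40A1, -0.12 to 0.082 for GPX4, -0.13 to 0.032 for ACSL4 and -0.068 to 0.11 for AIFM2.

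Between the lines, 12 alternatives gave 12542 to 14357 calls against 14106, and the 9 called genes of the 10 were called with the same sign in every one. SLC40A1 ranged from -0.34 to 0.13 when 1 library was left out. Those fits had the line alone, with no treatment term, and assume that the lone library of a line varies like the other line's pair; the lowest value, -0.34 without the AGS control library, had an edgeR adjusted p of 0.0185, and over the 12 it reached 0.809. Of the 116 list genes 93 were called, and 89 to 95 under the 12 alternatives. Ratios within a line kept their sign and stayed inside their counting intervals under other scalings and a prior of 2 counts. The interval of TFRC in HGC-27 lay above 0 with DESeq2 size factors and with total counts, and that of NCOA4 in AGS below 0 with total counts, which made 4 members higher in HGC-27 and 6 lower in AGS. Depth limits AIFM2 in HGC-27 most.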

Other observations

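Antisense and overlapping transcripts of the 10 genes were measured too. SLC7A11-AS1, which overlaps SLC7A11 on the opposite strand over 14081 bases, had 14 and 11 counts in the estradiol and control libraries of AGS against 119 and 122 in those of HGC-27, a fitted log2 difference of -3.26 ± 0.37 for AGS minus HGC-27. SLC7A11 differed in the same direction by -1.28. Without strand information, reads of these genes cannot be told apart where they overlap. BEST1, which overlaps FTH1 on the opposite strand over 5798 bases, had 2 and 6 counts in the AGS libraries against 101 and 106 in those of HGC-27.

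Of the 7 list genes with an unadjusted p under 0.05 for estradiol, 2 are given here and were picked after their values were seen. The quinone reductase NQO1 had log2 ratios of -0.19 in AGS and -0.11 in HGC-27, and the stress factor ATF3 0.28 in AGS and 0.21 in HGC-27. Neither passed the adjustment over all genes (edgeR adjusted p = 0.751 for NQO1 and 0.781 for ATF3), and each had the same sign in both lines.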
